A study of Mus musculus with 29 samples.

Results

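The genes that carry nucleosides across membranes and break them down or return them to nucleotides were followed in macrophages of spleen and liver. The members were listed by symbol: the transporters Slc29a1, Slc29a3 and Slc28a2, the purine enzymes Ada, Pnp and Xdh, the pyrimidine enzymes Upp1 and Cda, and Samhd1 and Dck of deoxynucleotide turnover. Of the 10 listed, 9 were among the 23930 genes of the table, and Pnp was not analysed here. The study asked how loss of RNase T2, an RNase of endosomes and lysosomes that digests RNA, alters macrophages, and it profiled sorted cells with an amplicon RNA-seq panel. RNase T2 is encoded in mice by Rnaset2a and Rnaset2b, and Rnaset2-/- mice lack both genes.

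The 29 libraries fell into 9 groups. Splenic macrophages were sorted from wild-type mice as Ly6C high cells (3 libraries) and as Ly6C low cells (3 libraries), and from Rnaset2-/- mice as Ly6C high cells (3 libraries) and as Ly6C low cells (4 libraries). Hepatic Ly6C high and Ly6C low macrophages were sorted from wild-type and from Rnaset2-/- mice, with 3 libraries in each of these 4 groups, and resident Kupffer cells were sorted from wild-type liver only (4 libraries). Spleen cells were first depleted of T, B, NK, neutrophil and erythroid cells and then gated as CD11b+ cells by Ly6C, the Ly6C low gate requiring CD16.2 (Fcgr4). Hepatic cells were gated as CD11b+ by Ly6C. The paper's methods give them as F4/80+ cells with high CD11b, and name high CD16.2 for the Rnaset2-/- macrophages and not for the wild-type ones. Kupffer cells were sorted as F4/80+ cells with low or intermediate CD11b, to which the labels add Tim4 as a positive marker. Wild-type mice were C57BL/6, the labels name no treatment, and the ages of the mice behind these libraries are not given in the sources used here. The deletion is present in every cell of the Rnaset2-/- animals, so it is not restricted to macrophages. The labels do not say whether the replicates of a group came from separate mice, so p-values measure the spread between these libraries.

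RNA that reaches the lysosome is cut by RNases to nucleotides, which are dephosphorylated to nucleosides. Slc29a3 encodes ENT3, the equilibrative transporter of lysosomal membranes that lets nucleosides out to the cytosol, and Slc29a1 encodes ENT1, the main equilibrative transporter of the cell surface. Slc28a2 encodes CNT2, a sodium-coupled transporter that prefers purine nucleosides. Inside the cell adenosine deaminase and purine nucleoside phosphorylase lead purines toward xanthine oxidoreductase and uric acid, while uridine phosphorylase and cytidine deaminase act on pyrimidine nucleosides. Loss of ENT3 is known to cause histiocytic disease in humans and macrophage accumulation in mice.

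Levels are given in RPM, reads scaled to a common library total. They were recovered as whole reads from libraries of 11175843 to 21167602 reads, so that 3 reads corresponded to 0.142 to 0.268 RPM. The panel reads each gene through an amplicon, so levels are compared between groups and not between genes. Rnaset2a and Rnaset2b were not analysed here, so the genotype label could not be checked on its target. Markers of the sorted classes followed the labels in part: the summed RPM of 8 Kupffer cell markers was 6736 to 19392 in Kupffer cells and 478 to 787 in wild-type hepatic Ly6C low cells, but also 6986 to 11622 in the hepatic Ly6C low cells of Rnaset2-/- mice. The paper proposes that these Rnaset2-/- cells are monocyte-derived Kupffer cells, and reports that they lacked Tim4 and Clec4f. The 6 wild-type hepatic Ly6C libraries held Xist at 321 to 539 RPM, with Y-linked transcripts at 29 to 52 RPM in replicates 2 and 3, whereas the 6 hepatic Rnaset2-/- libraries held Xist at 0 to 0.154 RPM and Y-linked transcripts at 150.1 to 291 RPM, and in these hepatic comparisons a difference of genotype cannot be told apart from one of sex. Of the splenic libraries only replicate 2 of the Rnaset2-/- Ly6C low group held Y-linked transcripts above the 3-read level (301 RPM). The interactions of organ and genotype, and contrasts of Rnaset2-/- groups between organs, carry this sex difference as well. Y-linked transcripts were at 0 RPM in the Kupffer cell libraries and at no more than 0.14 RPM in wild-type splenic ones. Contrasts of these with wild-type hepatic Ly6C cells, where replicates 2 and 3 held such transcripts, are therefore also unbalanced in sex. Summed RPM of 10 immediate early genes was 29796 to 31882 and 23705 to 33913 in wild-type hepatic Ly6C high and Ly6C low cells, against 3559 to 6830.3 and 1272 to 2146 in the corresponding Rnaset2-/- cells. The part of sorting, sex and this activation program in the hepatic differences was not tested.

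To ask how nucleoside genes differed without RNase T2, Rnaset2-/- and wild-type libraries were compared within each organ and subset. Slc28a2 was higher in Rnaset2-/- cells in all 4 comparisons, by 1.91-fold to 2.44-fold, and Upp1 was higher in 3 of 4, by 4.97-fold to 9.16-fold. Slc29a1 rose in both hepatic subsets, by 6.31-fold in Ly6C high and 5.11-fold in Ly6C low cells, and Xdh fell in hepatic Ly6C low cells, by 2.88-fold. Slc29a3 and Samhd1 were called in none of the 4. A gene was called at an adjusted p below 0.05 (limma, Benjamini-Hochberg over all genes tested) and a difference above 1.5-fold, on log2(RPM / scaling factor + 1), a scale that understates the fold of genes with few reads. With sorted bulk RNA, fewer cells of a type and less RNA per cell cannot be told apart.

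In splenic Ly6C high cells 3 of the 8 members tested were called, all higher, where 22.2% of all 10398 genes were called and 9.77% were called higher. In splenic Ly6C low cells 3 of 8 were called, all higher, against 8.35% of 10295 genes called and 4.05% called higher. Hepatic Ly6C high cells had 4 of 8 called, all higher, against 30.6% of 10957 genes called and 15.7% called higher. In hepatic Ly6C low cells 2 were called higher and 1 lower among 8, against 42.7% of 10808 genes called and 20.2% called higher. Cda did not reach 1 RPM in 3 libraries in any of these comparisons and was not tested there. The median log2 fold change of the 8 members was 0.14, 0.77, 0.70 and 0.50 in the order given, against 0.01 over all genes in each comparison. Over all genes, 1717 higher and 1634 lower were called in hepatic Ly6C high cells and 2661 higher and 905 lower with RPM as deposited, that is without a scaling factor. In splenic Ly6C high cells 1016 higher and 1295 lower were called and 733 higher and 1620 lower with RPM as deposited, and no called member changed sign, while Samhd1 and Xdh in splenic and Dck in hepatic Ly6C high cells, none of them called, had opposite signs on the 2 scales.

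**Figure D1:**
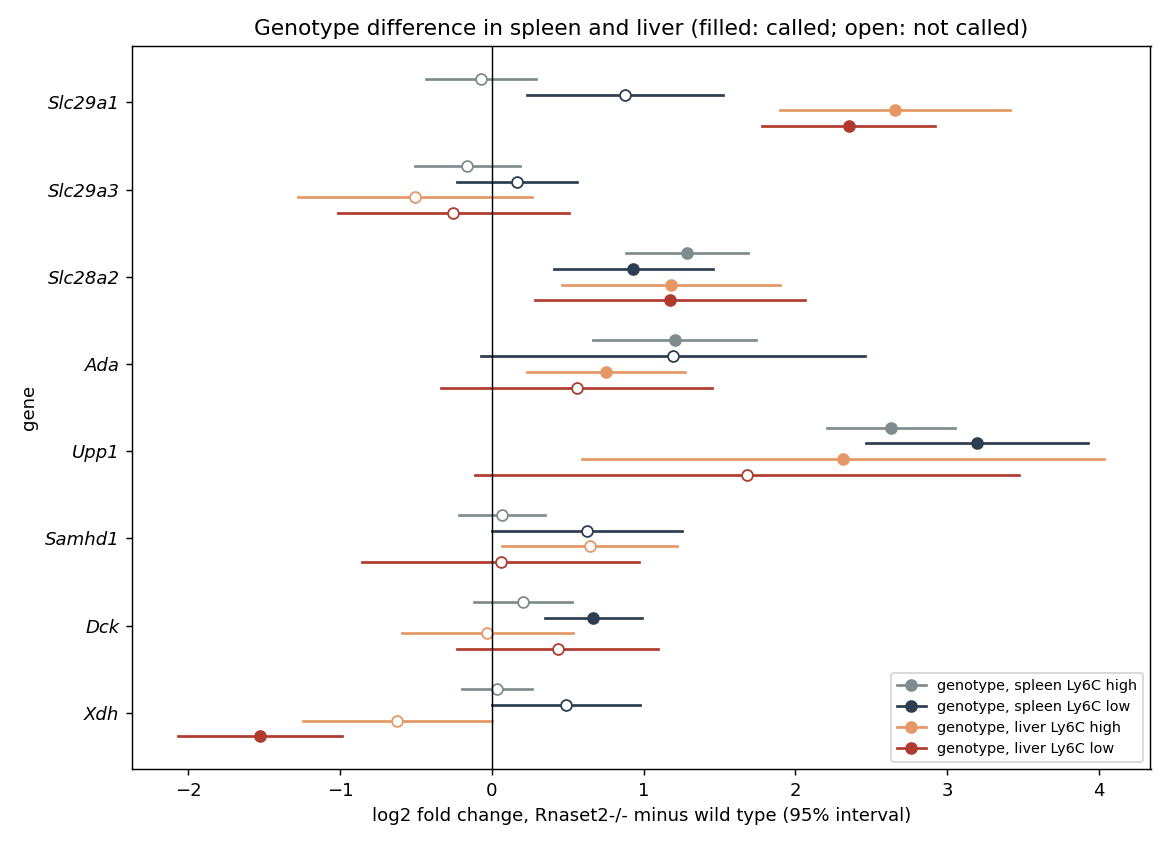
Log2 fold change of 8 genes between Rnaset2-/- and wild-type macrophages (x axis), by gene (y axis) and by organ and subset (colours), with bars for the 95% interval and filled points for called differences. Slc28a2 was filled in all 4 comparisons, Slc29a1 in both hepatic ones (2.66 and 2.35), and Xdh pointed down in hepatic Ly6C low cells (-1.52).

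Slc29a1, the cell surface transporter ENT1, lies at chr17:45585200-45599618 (GRCm38.p6). In hepatic Ly6C high cells it stood at 4.63, 6.92 and 3.58 RPM in the wild-type libraries and at 25.3, 53.8 and 63.8 RPM in the Rnaset2-/- libraries. Every Rnaset2-/- library lay above every wild-type one. The log2 fold change was 2.66 ± 0.33 (SE, adjusted p = 0.00146). In hepatic Ly6C low cells the wild-type values were 14.6, 13.2 and 15.9 RPM and the Rnaset2-/- values 64.7, 122 and 65.9 RPM, again without overlap, for a log2 fold change of 2.35 ± 0.25 (SE, adjusted p = 0.000229). In splenic Ly6C high cells the groups overlapped, at 10.9, 8.67 and 10.5 RPM in wild type and 9.02, 7.2 and 10.1 RPM in Rnaset2-/-, and the log2 fold change was -0.07 ± 0.16 (SE, adjusted p = 0.754). Splenic Ly6C low cells gave 38.4, 18.1 and 32.1 RPM in wild type and 38.4, 50.4, 61.1 and 63.3 RPM in Rnaset2-/-, where the lowest Rnaset2-/- library barely exceeded the highest wild-type one, and the log2 fold change of 0.88 ± 0.28 (SE, adjusted p = 0.0838) was not called. It was called there without replicate 1 of the Rnaset2-/- group, at 1.05 (adjusted p = 0.027), and its adjusted p ranged from 0.0247 to 0.258 over the alternatives.

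The genotype difference of Slc29a1 was larger in liver, where genotype and sex cannot be told apart, than in spleen. The interaction of organ and genotype was 2.77 ± 0.38 (SE, adjusted p = 0.000215) on the log2 scale in Ly6C high cells and 1.49 ± 0.40 (SE, adjusted p = 0.0159) in Ly6C low cells, with 95% intervals of 1.94 to 3.60 and 0.62 to 2.35. These tests called 1 of 8 members in Ly6C high and 2 of 8 in Ly6C low cells, against 33.5% and 26.8% of all genes. In Ly6C high cells these were 2005 higher and 1818 lower, or 3148 higher and 841 lower with RPM as deposited. The 2 hepatic genotype calls of Slc29a1 and both interactions kept their call under every alternative and without any library. Sinusoidal endothelial cell markers (7 genes, summed RPM) also differed between these groups, at 79.7 to 114 and 267 to 429 in wild-type hepatic Ly6C high and Ly6C low cells and 421 to 2456 and 1389.7 to 4233 in the Rnaset2-/- cells, and Kupffer cells held 2999.6 to 6049.8. All 7 markers were called higher in hepatic Ly6C high and 3 of 7 in hepatic Ly6C low Rnaset2-/- cells. The sum was also higher in splenic Ly6C low cells, at 271 to 326 RPM in wild type and 1462 to 2203 RPM in Rnaset2-/-. There 1 of 3 markers tested was called higher, and Stab2 was at 0 in every Rnaset2-/- library. In splenic Ly6C high cells 1 of 4 was called higher and 2 lower. The part of these markers in the Slc29a1 difference was not tested. Across all 9 groups Slc29a1 was highest in Kupffer cells at 105 ± 21.7 RPM (SD, n = 4), whose range overlapped that of hepatic Ly6C low Rnaset2-/- cells, and lowest in wild-type hepatic Ly6C high cells at 5.04 ± 1.71 RPM (SD, n = 3).

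Slc29a3, the lysosomal transporter ENT3 (chr10:60712072-60752849), separated the splenic subsets more than the genotypes. It was present at 168, 163 and 198 RPM in wild-type splenic Ly6C high cells and at 47.2, 40.7 and 45.1 RPM in wild-type splenic Ly6C low cells, with no overlap, and fell by 1.82 ± 0.10 on the log2 scale between them (SE, adjusted p = 2.88e-07). In Rnaset2-/- spleen the difference was -1.52 ± 0.21 (SE, adjusted p = 0.00182). Between genotypes the splenic values overlapped, with 187, 111 and 145 RPM in Rnaset2-/- Ly6C high cells and 69.1, 53.2, 39 and 42 RPM in Rnaset2-/- Ly6C low cells. The log2 fold changes were -0.16 (adjusted p = 0.44) and 0.17 (adjusted p = 0.551), with 95% intervals of -0.51 to 0.18 and -0.23 to 0.56.

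In liver the genotype result of Slc29a3 depended on replicate 1 of each Rnaset2-/- group. Hepatic Ly6C high cells held 182, 156 and 136 RPM in wild type and 218, 106 and 112 RPM in Rnaset2-/-, and hepatic Ly6C low cells held 108, 107 and 102 RPM and 165, 65.6 and 69.2 RPM. Replicate 1 was the highest library in both Rnaset2-/- groups, while the other 2 lay below every wild-type library. With all libraries the log2 fold changes were -0.51 (adjusted p = 0.277) and -0.25 (adjusted p = 0.57), and without replicate 1 they were -0.89 (adjusted p = 0.00259) and -0.67 (adjusted p = 0.0129), both called. Over all alternatives their adjusted p ranged from 0.00259 to 0.639 and from 0.0129 to 0.959. The interactions of organ and genotype behaved alike, at -0.31 (adjusted p = 0.587) and -0.41 (adjusted p = 0.471) with all libraries and at -0.72 (adjusted p = 0.0247) and -0.84 (adjusted p = 0.0242), both called, without that replicate. Wild-type hepatic Ly6C low cells held more Slc29a3 than splenic ones, by 1.28 ± 0.12 (SE, adjusted p = 4.73e-05) on the log2 scale. In the order of the 9 groups every neighbouring pair overlapped, from Kupffer cells at 181 ± 50.6 RPM (SD, n = 4) to wild-type splenic Ly6C low cells at 44.3 ± 3.34 RPM (SD, n = 3).

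Slc28a2, the purine-preferring concentrative transporter CNT2 (chr2:122426357-122461152), was the member called in every genotype comparison. Splenic Ly6C high cells held 42.4, 35.5 and 43.4 RPM in wild type and 70.4, 87.6 and 126 RPM in Rnaset2-/-, and the log2 fold change was 1.29 ± 0.18 (SE, adjusted p = 0.000423). In splenic Ly6C low cells it was 25.6, 23.3 and 19.5 RPM in wild type and 68.9, 46.4, 30.6 and 37.8 RPM in Rnaset2-/-, a log2 fold change of 0.93 ± 0.23 (SE, adjusted p = 0.0421). Hepatic Ly6C high cells gave 21.2, 21.4 and 15.4 RPM and 67.2, 69.2 and 36.4 RPM, a log2 fold change of 1.18 ± 0.31 (SE, adjusted p = 0.0246). In each of these 3 comparisons the Rnaset2-/- libraries lay above all wild-type libraries, as they did in hepatic Ly6C low cells, where the values were 18.7, 14.9 and 22.3 RPM and 84.5, 39.4 and 25.3 RPM and the log2 fold change 1.17 ± 0.39 (SE, adjusted p = 0.0385). The size of the difference was not shown to depend on organ, with interactions of -0.07 (adjusted p = 0.907) and 0.25 (adjusted p = 0.739) and intervals of -0.92 to 0.78 and -0.77 to 1.27.

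The first of these calls held without any library, whereas the other 3 were lost without some. Adjusted p for Slc28a2 ranged from 0.0229 to 0.156 in splenic Ly6C low cells with each library left out in turn, and the call was lost without any wild-type library or without Rnaset2-/- replicate 2 or 4. It was also lost without the filter on low values, at 0.93 (adjusted p = 0.0719), and with RPM as deposited, at 0.93 (adjusted p = 0.0539). In hepatic Ly6C high cells the range was 0.0074 to 0.0955 and in hepatic Ly6C low cells 0.0112 to 0.125, with the call lost in each without any wild-type library or without Rnaset2-/- replicate 2. Without replicate 1 of the Rnaset2-/- group the log2 fold change in hepatic Ly6C low cells was 0.72 (adjusted p = 0.0465), the lowest of those values, and still called. Without the filter it was 1.17 (adjusted p = 0.0679) there, which was not called. The direction was the same in every case.

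Slc28a2 has a neighbouring paralog, Slc28a2b (chr2:122484941-122528040), listed in the table under its older name Gm14085. Its level rose and fell with that of Slc28a2 across the 29 libraries (Pearson r = 0.901 on log2(RPM + 1)), at a ratio of Slc28a2 to Gm14085 between 11.1 and 49.8. The libraries share groups, so this is a description. Gm14085 was called higher in Rnaset2-/- splenic Ly6C high cells (0.86 ± 0.24 SE, adjusted p = 0.0172) and hepatic Ly6C high cells (1.45 ± 0.30 SE, adjusted p = 0.0102), the former lost without wild-type replicate 1, without the filter on low values and with all 29 libraries in 1 fit (adjusted p from 0.00633 to 0.152 over the alternatives). The sequences of these paralogs were not compared here. Amplicon reads could be divided between them, so the level of each is uncertain.

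Upp1, uridine phosphorylase, which splits uridine to uracil and ribose 1-phosphate, lies at chr11:9118008-9136170 and had the widest spread of group means among the members. Its highest group mean leaned on 1 library, replicate 1 of the hepatic Ly6C high Rnaset2-/- group, at 299.6 RPM. Splenic Ly6C high cells held 1.87, 2.15 and 1.26 RPM in wild type and 12.8, 17 and 15.3 RPM in Rnaset2-/-. Splenic Ly6C low cells held 2.17, 2.27 and 1.26 RPM and 31.7, 13.3, 29.2 and 31.8 RPM. In both subsets the genotypes were far apart relative to the spread of the libraries, with log2 fold changes of 2.63 ± 0.19 (SE, adjusted p = 7.34e-06) and 3.20 ± 0.32 (SE, adjusted p = 0.0011), and both calls held under all alternatives and without any library. Replicate 2 of the Rnaset2-/- Ly6C low group was the lowest of its 4 libraries and still well above wild type.

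In liver the level of Upp1 depended on the subset and on the library. Hepatic Ly6C high cells held 12.8, 17.6 and 8.95 RPM in wild type and 299.6, 41.6 and 45.2 RPM in Rnaset2-/-, where replicate 1 stood far above the others. The log2 fold change was 2.31 ± 0.74 (SE, adjusted p = 0.0479) and 1.34 (adjusted p = 0.00204) without that replicate, and the call was lost without any 1 of the 3 wild-type libraries or without the filter on low values (adjusted p from 0.00204 to 0.152 with each library left out). Hepatic Ly6C low cells held 1.32, 3.4 and 3.58 RPM in wild type and 45.2, 3.19 and 7.58 RPM in Rnaset2-/-. Replicate 1 was again the highest and another Rnaset2-/- library lay among the wild-type ones, so the log2 fold change of 1.68 ± 0.78 (SE, adjusted p = 0.114) was not called, and it was 0.71 (adjusted p = 0.217) without replicate 1 and 2.46 (adjusted p = 0.0301) without replicate 2, the latter called. Adjusted p ranged from 0.00204 to 0.152 in Ly6C high and 0.00243 to 0.284 in Ly6C low cells over the alternatives. The 2 replicate 1 libraries also held 421 and 1389.7 RPM of sinusoidal endothelial cell markers, the lowest of their groups, and 31208 and 11502 RPM of monocyte and macrophage markers, the highest of their groups. The part of this in the Upp1 values was not tested.

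The interactions of organ and genotype for Upp1 were -0.26 (adjusted p = 0.844) in Ly6C high and -1.49 (adjusted p = 0.245) in Ly6C low cells, with wide intervals of -2.11 to 1.60 and -3.45 to 0.46. Without replicate 1 of the hepatic Rnaset2-/- group they were -1.25 (adjusted p = 0.00701) and -2.47 (adjusted p = 0.00824), both called and both toward a smaller difference in liver. Over the alternatives adjusted p ranged from 0.00701 to 0.968 and from 0.00824 to 0.54. In wild-type mice Upp1 was higher in hepatic than in splenic Ly6C high cells (2.53 ± 0.24 SE, adjusted p = 3.18e-05) and fell from hepatic Ly6C high to Ly6C low cells (-2.01 ± 0.32 SE, adjusted p = 0.00453).

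Upp1 and Slc28a2 were the members called in the most genotype comparisons, and the sequence before the annotated start of each is shown, from RefSeq (GRCm38.p6, plus strand, written 5′ to 3′). The windows are chr11:9117758-9118007 for Upp1 and chr2:122426185-122426356 for Slc28a2. Capitals mark letters of 4 motifs searched on both strands: TGANTCA of AP-1 factors, CACGTG of E-box factors, GGGA and TTCC parted by 2 bases of NF-kB factors, and GAAA and GAAA parted by 2 bases of interferon response elements.

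Upp1: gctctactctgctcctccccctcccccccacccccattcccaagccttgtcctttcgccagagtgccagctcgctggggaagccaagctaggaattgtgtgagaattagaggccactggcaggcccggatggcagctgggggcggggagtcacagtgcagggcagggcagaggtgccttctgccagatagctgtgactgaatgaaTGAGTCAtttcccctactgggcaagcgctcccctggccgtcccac
Slc28a2: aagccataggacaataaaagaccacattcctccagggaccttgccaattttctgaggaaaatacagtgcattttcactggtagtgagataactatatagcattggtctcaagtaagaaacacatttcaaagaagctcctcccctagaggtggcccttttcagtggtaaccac

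Only Upp1 among the members held the AP-1 letters, as TGAGTCA, in its windows of 250 bases before to 50 bases after a start, and 7.81% of the 32851 windows of all genes held them. Slc29a1 held CACGTG in 1 of its 8 windows, and 7.15% of all windows held these letters. Ada held the NF-kB letters, found in 1.47% of all windows, and no member held the interferon response letters, found in 3.44%. Of the 10 listed members 9 had a window in the table. The matches are a description of letters, and the sites of Ada (chr2:163750357-163750386, minus strand) and Slc29a1 (chr17:45595306-45595331, minus strand) are given with the 10 bases on each side.

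Ada: gggctcacctGGGAGCTTCCtagggtgtag
Slc29a1: gcagcgccagCACGTGgcgcgcatgg

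Cda, cytidine deaminase (chr4:138338528-138368311), was detected mainly in Kupffer cells. It was present at 7.21, 19.1, 18.8 and 7.72 RPM in the 4 Kupffer cell libraries. Wild-type hepatic Ly6C low cells held 0.414, 0.61 and 0.447 RPM, from 5, 7 and 5 reads, and the Rnaset2-/- ones 0.077, 0.7 and 0.613 RPM, from 1, 9 and 8 reads. The log2 difference of Kupffer cells from wild-type hepatic Ly6C low cells was 2.77 ± 0.37 (SE, adjusted p = 0.000134), a value reduced by the added 1 RPM. The hepatic Rnaset2-/- Ly6C low cells stood below Kupffer cells by 2.87 (adjusted p = 0.000577), and their 8 Kupffer cell markers summed to 11622, 8341 and 6986 RPM, against 17289, 18584, 6736 and 19392 RPM in Kupffer cells. All 13 splenic libraries held 0 to 0.356 RPM, that is at most 5 reads. The listed Cda values of hepatic Ly6C high cells were 0.154, 0.25 and 0.089 RPM in wild type and 0, 1.62 and 2.38 RPM in Rnaset2-/-, where 2 of 3 libraries exceeded all wild-type ones and the remaining one held no read. The Kupffer cell libraries also held markers of hepatocytes (5 genes, 1166 to 3989 RPM in sum) and of sinusoidal endothelial cells (2999.6 to 6049.8 RPM), and their part in the Cda values was not tested.

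Ada, adenosine deaminase (chr2:163726571-163750239), which turns adenosine and deoxyadenosine into inosine and deoxyinosine, rose in both Ly6C high populations of Rnaset2-/- mice. In spleen it was 23.2, 23.4 and 19.5 RPM in wild type and 30.2, 63.6 and 56.9 RPM in Rnaset2-/-, without overlap, for a log2 fold change of 1.20 ± 0.24 (SE, adjusted p = 0.00331). In liver it was 5.87, 4.25 and 5.01 RPM and 9.52, 11.4 and 13.4 RPM, also without overlap, for a log2 fold change of 0.75 ± 0.23 (SE, adjusted p = 0.0374). The splenic call held without any library and was lost only with all 29 libraries in 1 fit (1.21, adjusted p = 0.0956, against adjusted p from 6.66e-07 to 0.0956 over all alternatives). The hepatic call was lost without any wild-type library or without Rnaset2-/- replicate 2 or 3 (adjusted p from 0.0281 to 0.109), without the filter, at 0.75 (adjusted p = 0.0926), and with all 29 libraries in 1 fit, at 0.79 (adjusted p = 0.157). Markers of other cells also differed between these groups. The neutrophil and granulocyte precursor sums of the splenic Ly6C high Rnaset2-/- libraries were 33171, 57829 and 54124 RPM, against 30476 to 32708 RPM in wild type, with 6 of 11 markers called higher. In hepatic Ly6C high cells 6 of 7 T cell and 6 of 7 NK cell markers were called higher, with T cell sums of 11.4 to 31 RPM in wild type and 166 to 379 RPM in Rnaset2-/-. In replicate order the Rnaset2-/- T cell sums were 379, 308 and 166 RPM, opposite to Ada, and the NK cell sums 57.5, 267 and 381 RPM. B cell markers were called higher for 5 of 5 and sinusoidal endothelial markers for 7 of 7. Their sums were 95.3, 203 and 299 RPM and 421, 2004 and 2456 RPM in replicate order. The NK cell, B cell and endothelial sums thus ran in the order of Ada. In splenic Ly6C high cells all 7 T cell and all 7 NK cell markers were called lower. In hepatic Ly6C high cells 0 of 9 neutrophil and granulocyte precursor markers were called higher. Their part in the Ada differences was not tested.

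In splenic Ly6C low cells Ada varied within the Rnaset2-/- group, at 44.2, 19.6, 7.38 and 5.99 RPM, against 4.54, 6.79 and 5.97 RPM in wild type. Replicates 1 and 2 were high and the other 2 close to wild type, and the log2 fold change of 1.19 ± 0.56 (SE, adjusted p = 0.19) was not called. The summed RPM of 11 neutrophil and granulocyte precursor markers in the same 4 Rnaset2-/- libraries was 39316, 22465, 4319 and 3373, against 1057 to 2409 in wild type, and that of 8 proliferation markers was 791, 405, 199 and 227. Replicates 1 and 2 were the highest of the group in both sums as in Ada. They were also highest in classical monocyte (865, 199, 64.7 and 80.2 RPM), erythroid (944, 222, 54 and 68 RPM) and B cell sums (105, 59.5, 33.8 and 33.3 RPM). The same held for dendritic cell, Kupffer cell and monocyte and macrophage sums, but not for T cell, NK cell and sinusoidal endothelial cell sums. Patrolling monocyte sums were lowest in them. The part of these cells in the Ada values was not tested. Hepatic Ly6C low cells held 7.53, 9.32 and 7.16 RPM in wild type and 25.1, 8.33 and 9.19 RPM in Rnaset2-/-, with replicate 1 again highest, and the difference was not called (0.56, adjusted p = 0.277). Kupffer cells held the most Ada of the 9 groups, at 60.8 ± 19.3 RPM (SD, n = 4), overlapping only with Rnaset2-/- splenic Ly6C high cells. Their libraries also held 194 to 314 RPM of T cell and 469 to 883 RPM of B cell markers. Wild-type hepatic Ly6C low cells held 15.1 to 33.6 and 25.9 to 30.1 RPM. Kupffer replicate 3 was highest in Ada and in both sums, while replicate 2, next in Ada, was lowest in both sums. The part of these cells in Kupffer cell Ada was not tested.

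Xdh, xanthine oxidoreductase (chr17:73883895-73950397), makes uric acid from hypoxanthine and xanthine. In hepatic Ly6C low cells it was 439.9, 380.0 and 397 RPM in wild type and 191, 162 and 97.1 RPM in Rnaset2-/-. All 3 Rnaset2-/- libraries lay below all wild-type ones, and Xdh fell by 1.52 ± 0.24 on the log2 scale (SE, adjusted p = 0.00141). In hepatic Ly6C high cells the values were 503, 451 and 419.6 RPM and 222, 427 and 534 RPM, which overlapped, with a log2 fold change of -0.62 ± 0.27 (SE, adjusted p = 0.115). Splenic Ly6C high cells held 437, 494 and 413 RPM and 465, 389 and 415 RPM, and the log2 fold change was 0.04 (adjusted p = 0.809). Splenic Ly6C low cells held 580.0, 419 and 419 RPM and 514, 637, 636 and 863 RPM, in the opposite direction to liver at 0.49 (adjusted p = 0.167), a difference called without replicate 1 of the Rnaset2-/- group (0.63, adjusted p = 0.0467, with adjusted p from 0.0467 to 0.398 over the alternatives).

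The interaction of organ and genotype for Xdh was -2.00 ± 0.33 (SE, adjusted p = 0.000787) on the log2 scale in Ly6C low cells, with a 95% interval of -2.71 to -1.29, and -0.62 (adjusted p = 0.125) in Ly6C high cells, where it was called without hepatic Rnaset2-/- replicate 3 (-0.83, adjusted p = 0.0362, with adjusted p from 0.0362 to 0.656 over the alternatives). The call in Ly6C low cells and the hepatic Ly6C low genotype call held under all alternatives and without any library. Sex differed with genotype in the hepatic libraries of these tests. The hepatic Ly6C low Rnaset2-/- group was the lowest of the 9 for Xdh, at 149.8 ± 48 RPM (SD, n = 3), and did not overlap the next group, Kupffer cells at 343 ± 59.8 RPM (SD, n = 4). In the test against Kupffer cells its log2 difference was -0.70 ± 0.24 (SE, adjusted p = 0.0378). That call was lost with TMM factors, with edgeR on the recovered reads and without the filter on low values, and without replicate 1, 2 or 4 of the Kupffer cells or without Rnaset2-/- replicate 2 or 3 (adjusted p from 0.0162 to 0.143 with each library left out). It was -0.68 (adjusted p = 0.0506) with TMM factors and -1.23 (adjusted p = 0.00307) with RPM as deposited, and adjusted p ranged from 0.00276 to 0.143 over all alternatives.

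Samhd1, the dNTP triphosphohydrolase that returns dNTPs to deoxynucleosides (chr2:157097534-157135096), was called in no genotype comparison. The highest group was hepatic Ly6C high Rnaset2-/- cells, at 576, 569.7 and 560.3 RPM, above the wild-type values of 248, 435 and 229 RPM, and the log2 fold change was 0.64 ± 0.25 (SE, adjusted p = 0.0857). Leaving out wild-type replicate 2, the highest of its group, gave 0.89 (adjusted p = 0.0239), and RPM as deposited gave 0.96 (adjusted p = 0.0261), both called, with adjusted p from 0.0239 to 0.269 over the alternatives. In splenic Ly6C low cells Samhd1 was 380.1, 229.7 and 322 RPM and 340.1, 388, 628 and 576 RPM, overlapping, and its log2 fold change of 0.63 (adjusted p = 0.167) was called without Rnaset2-/- replicate 1 (0.81, adjusted p = 0.0496, with adjusted p from 0.0496 to 0.455 over the alternatives). Splenic Ly6C high and hepatic Ly6C low cells gave 0.07 (adjusted p = 0.704) and 0.06 (adjusted p = 0.92).

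Dck, deoxycytidine kinase (chr5:88765013-88783277), phosphorylates salvaged deoxynucleosides. It rose in splenic Ly6C low cells, from 35.5, 25.5 and 31 RPM in wild type to 54.6, 48.5, 48.9 and 43.2 RPM in Rnaset2-/-, without overlap, by 0.67 ± 0.14 (SE, adjusted p = 0.0239) on the log2 scale. The call was lost without wild-type replicate 2 or 3 or without Rnaset2-/- replicate 2 (adjusted p from 0.0235 to 0.097) and with all 29 libraries in 1 fit, at 0.66 (adjusted p = 0.0603). In the other 3 genotype comparisons the log2 fold changes of Dck were 0.20 (adjusted p = 0.296) in splenic Ly6C high, -0.03 (adjusted p = 0.939) in hepatic Ly6C high and 0.43 (adjusted p = 0.254) in hepatic Ly6C low cells. The difference between organs was not called, with intervals of -0.85 to 0.45 in Ly6C high and -0.91 to 0.45 in Ly6C low cells.

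**Figure D2:**
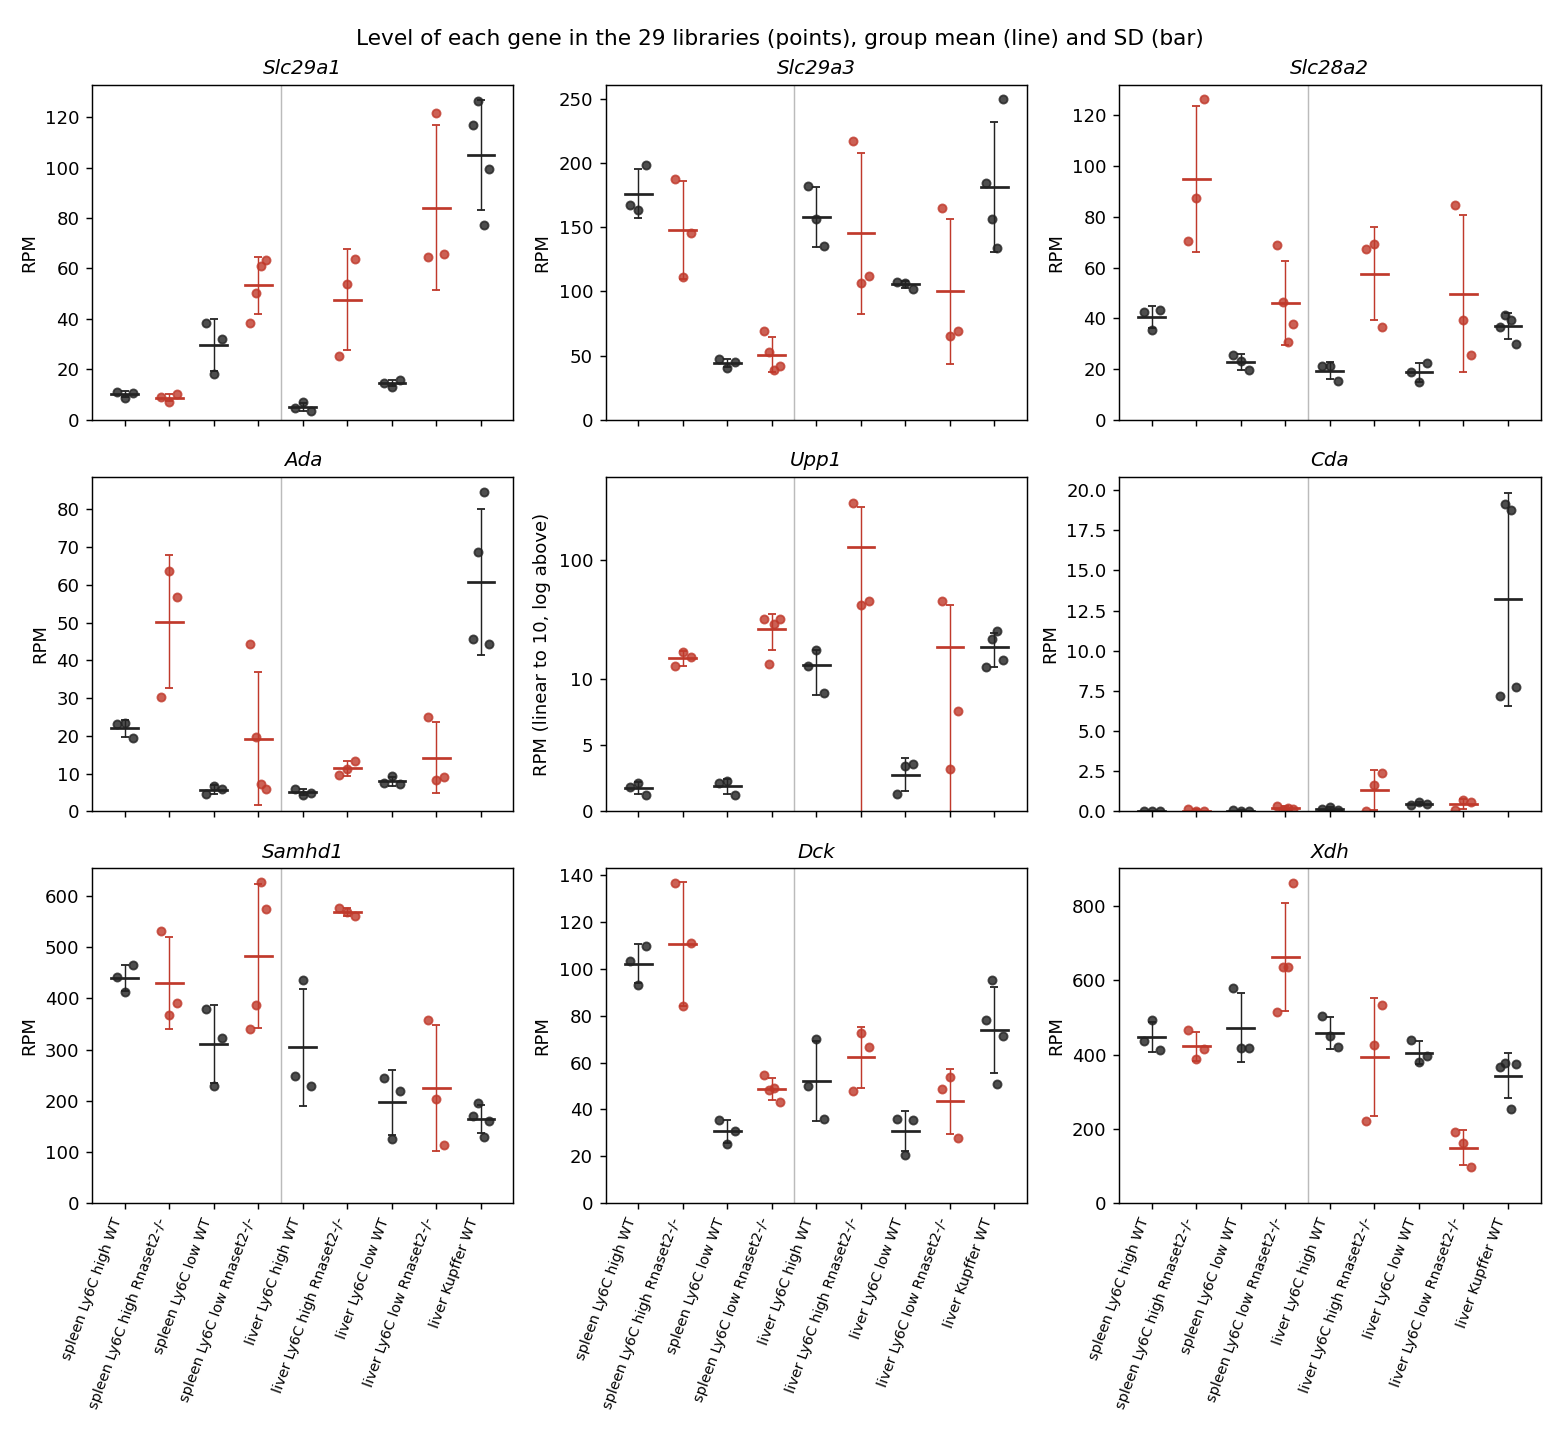
RPM (y axis, linear, except Upp1 on an axis that is linear to 10 RPM and logarithmic above) of 9 genes in the 29 libraries (points, replicates in order from left to right), with group means (lines) and SD (bars, cut at 0), by group (x axis; black, wild type; red, Rnaset2-/-; the grey line parts spleen from liver). Cda exceeded 5 RPM only in Kupffer cells, Slc29a1 was highest there and in hepatic Ly6C low Rnaset2-/- cells, and replicate 1 of the hepatic Ly6C high Rnaset2-/- group stood apart for Upp1 at 299.6 RPM.

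Ly6C high and Ly6C low cells were then compared within organ and genotype. In wild-type spleen 5 of 8 members were called, where 33.6% of 10521 genes were (1451 higher and 2079 lower, or 1060 higher and 2494 lower with RPM as deposited). Slc29a1 was higher in Ly6C low cells by 1.55 ± 0.23 (SE, adjusted p = 0.000326) on the log2 scale, while Slc29a3, Ada and Dck were lower by 1.82, 1.64 and 1.57. Slc28a2 was lower by 0.66, a call lost without Ly6C low replicate 3, where the difference fell under 1.5-fold (-0.55, adjusted p = 0.00929, with adjusted p from 5.23e-05 to 0.145 over the alternatives). Upp1 did not separate the wild-type splenic subsets (0.16, adjusted p = 0.557). All 11 neutrophil and granulocyte precursor, 7 T cell, 7 NK cell and 8 proliferation markers tested were called lower in these Ly6C low cells. Patrolling monocyte and Kupffer cell markers were called higher for 5 of 6 and 4 of 6. The part of these marker differences in the member calls was not tested.

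In Rnaset2-/- spleen 5 of 8 were called, against 28.1% of 10309 genes. Slc29a1 was again higher in Ly6C low cells (2.47 ± 0.22 SE, adjusted p = 0.000262), and Slc29a3 and Dck were lower (-1.52 and -1.13). The calls of Slc28a2 (-1.04, adjusted p = 0.0192) and Xdh (0.64, adjusted p = 0.0356) were lost when libraries were left out, the former without Ly6C high replicate 2 or 3 and the latter without any library but Ly6C low replicate 1, with adjusted p of 0.00206 to 0.0792 and 0.00376 to 0.116. Ada, at -1.67 (adjusted p = 0.0585), was not called with all libraries and was called without Ly6C low replicate 1 (-2.17, adjusted p = 0.00273, with adjusted p from 0.00273 to 0.187 over the alternatives).

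In wild-type liver 3 of 8 were called between subsets, against 10.1% of 11688 genes (612 higher and 566 lower, or 789 higher and 418 lower with RPM as deposited). Slc29a1 was higher in Ly6C low cells (1.30 ± 0.23 SE, adjusted p = 0.00774) and Upp1 lower (-2.01 ± 0.32 SE, adjusted p = 0.00453). Slc29a3 was also lower, by 0.68 (adjusted p = 0.0282), a call lost without Ly6C high replicate 1 or any Ly6C low replicate (adjusted p from 0.0392 to 0.122). In Rnaset2-/- liver 1 of 8 was called, against 17% of 10895 genes (953 higher and 900 lower, or 667 higher and 1052 lower with RPM as deposited). Xdh was lower in Ly6C low cells (-1.19 ± 0.33 SE, adjusted p = 0.0497). This call was lost without replicate 2 or 3 of either group (adjusted p from 0.0036 to 0.164) and was -1.66 (adjusted p = 0.0036) without replicate 1 of both groups. In this comparison the deviations of same-numbered libraries correlated above 0.1 in all 3 pairs. With the replicate number as a block Xdh was -1.19 (adjusted p = 0.0325), Upp1 -2.67 (adjusted p = 0.000665), Samhd1 -1.32 (adjusted p = 0.00977) and Slc29a1 1.01 (adjusted p = 0.0193), so that 4 of 8 were called, against 28.8% of all genes in that fit. Without the block Upp1, Samhd1 and Slc29a1 stood at -2.67 (adjusted p = 0.131), -1.32 (adjusted p = 0.0541) and 1.01 (adjusted p = 0.0848).

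Wild-type cells of the same subset were compared between organs. Of 8 members 5 were called in Ly6C high cells, against 37.8% of 10681 genes (1824 higher and 2211 lower, or 1162 higher and 3413 lower with RPM as deposited), and 2 of 8 in Ly6C low cells, against 34.1% of 10611. In Ly6C high cells Ada was lower in liver (-1.68 ± 0.18 SE, adjusted p = 5.91e-05), with Slc28a2 and Dck also lower (-0.77 and -0.73), and Upp1 was higher (2.53 ± 0.24 SE, adjusted p = 3.18e-05). The call of Dck was lost without hepatic replicate 3, where the difference fell under 1.5-fold, at -0.51 (adjusted p = 0.0226). Between these Ly6C high cells 8 of 8 proliferation and 9 of 11 neutrophil and granulocyte precursor markers were called lower in liver. So were 7 of 7 NK cell and 6 of 7 T cell markers, while 6 of 10 immediate early and 5 of 7 sinusoidal endothelial markers were called higher. The part of these marker differences in the member calls was not tested. Slc29a1 was lower in hepatic cells of both subsets, at -0.66 (adjusted p = 0.0274) and -0.87 (adjusted p = 0.018). The first of these calls was lost without replicate 1 or 3 of either group and the second without splenic replicate 1 or 3, with adjusted p of 0.00302 to 0.0986 and 0.000997 to 0.0726. So in wild-type cells Slc29a1 was lower in liver than in spleen, whereas in Rnaset2-/- mice the group means ran the other way, at 47.6 ± 20 RPM (SD, n = 3) in hepatic and 8.78 ± 1.47 RPM (SD, n = 3) in splenic Ly6C high cells and at 84.1 ± 32.6 RPM (SD, n = 3) and 53.3 ± 11.4 RPM (SD, n = 4) in Ly6C low cells. The hepatic and most of the splenic Rnaset2-/- libraries also differed in sex. Replicates 2 and 3 of both wild-type hepatic groups held Y-linked transcripts, which the wild-type splenic libraries held at no more than 0.14 RPM.

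**Figure D3:**
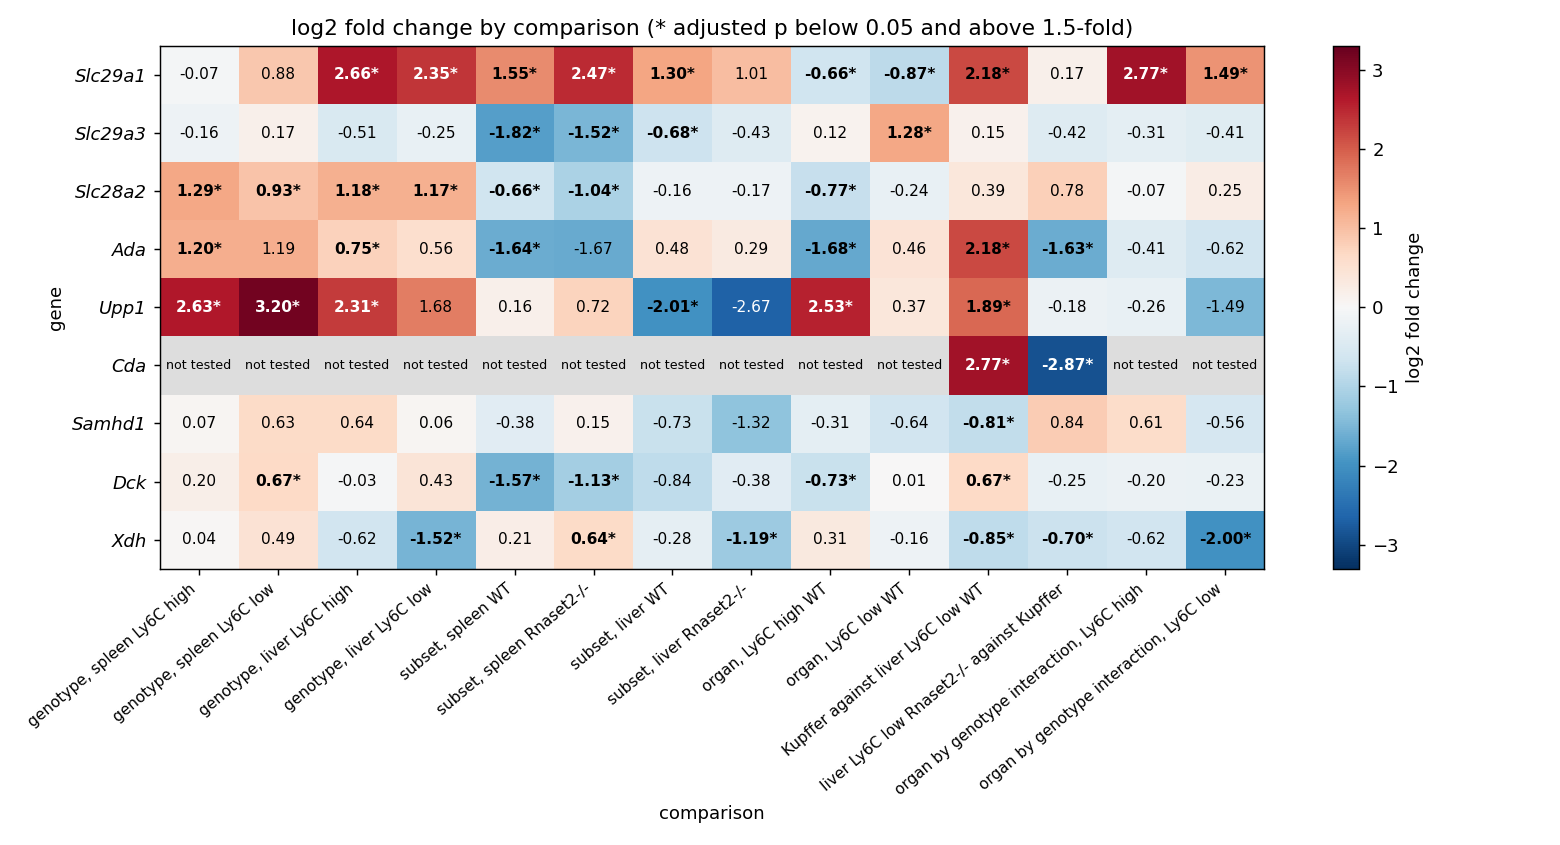
Log2 fold change (colour and number) of 9 genes (rows) in the 12 comparisons and 2 interactions (columns), the first-named group or genotype minus the second, low minus high for subsets and liver minus spleen for organs, with an asterisk and bold type for called values. Slc29a1 was positive in 11 of 14 columns, from -0.87 to 2.77, and Cda was tested only in the 2 Kupffer cell comparisons.

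Kupffer cells, the resident macrophages of liver sinusoids, differed from wild-type hepatic Ly6C low cells in 7 of 9 members, where 50% of 12515 genes differed (3254 higher and 2999 lower, or 5477 higher and 1385 lower with RPM as deposited). They were higher in Ada (2.18 ± 0.25 SE, adjusted p = 4.55e-05), Slc29a1 (2.18 ± 0.20 SE, adjusted p = 1.01e-05), Upp1 (1.89 ± 0.35 SE, adjusted p = 0.00106) and Cda. Dck was higher by 0.67 ± 0.25 (SE, adjusted p = 0.0422), a call lost without any library but Kupffer replicate 3 (adjusted p from 0.00816 to 0.188). Immediate early genes were called lower in Kupffer cells for 10 of 10, with sums of 1707 to 2844 RPM against 23705 to 33913 RPM. T cell markers were called higher for 6 of 7 and B cell markers for 5 of 5. Replicates 2 and 3 of the Ly6C low group held 52 RPM of Y-linked transcripts each, against 0 RPM in the Kupffer cell libraries. The part of these differences in the member calls was not tested. Xdh and Samhd1 were lower, at -0.85 (adjusted p = 0.00236) and -0.81 (adjusted p = 0.0116), but these calls depended on scaling, and Samhd1 lost its call also without Ly6C low replicate 3 (-0.71, adjusted p = 0.0524). With RPM as deposited, where the median log2 fold change of all genes moved from 0.02 to 0.55, Xdh was -0.26 (adjusted p = 0.227) and Samhd1 -0.22 (adjusted p = 0.44), and Slc29a3 and Slc28a2 were called higher, at 0.73 (adjusted p = 0.00981) and 0.95 (adjusted p = 0.0025), against adjusted p over the alternatives from 4.2e-05 to 0.227 for Xdh, 0.00174 to 0.44 for Samhd1, 0.00981 to 0.909 for Slc29a3 and 0.0025 to 0.368 for Slc28a2.

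Of the Kupffer cell markers 4 of 8 were called lower and 1 higher in hepatic Ly6C low Rnaset2-/- cells than in Kupffer cells. Among the members these cells were called lower than Kupffer cells in Ada (-1.63 ± 0.38 SE, adjusted p = 0.00654), Cda and Xdh, 3 of 9 members against 45.6% of 12127 genes (2351 higher and 3184 lower, or 977 higher and 5156 lower with RPM as deposited). Slc29a1, which both groups held at high levels, was not called (0.17, adjusted p = 0.606, interval -0.40 to 0.73, and -0.36 (adjusted p = 0.28) with RPM as deposited). This comparison shares its Kupffer cell libraries with the one before it, and its groups differ in sex as well as genotype.

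Over the 9 group means Upp1 spanned the widest range of the members, 5.55 on log2(RPM + 1), wider than 95.5% of the 9677 genes with a mean of at least 10 RPM in some group. Slc29a1 followed at 4.13, Cda at 3.83 and Ada at 3.35, and the narrowest was Samhd1 at 1.79, against a median of 1.57 over those genes. The highest group mean of Upp1, 129 RPM in hepatic Ly6C high Rnaset2-/- cells, leaned on replicate 1. That library held 299.6 RPM, against 41.6 and 45.2 RPM in replicates 2 and 3, and the rank of Upp1 without it was not computed. The members did not move as a block: across groups the closest pair was Ada and Dck (Pearson r = 0.742) and the most opposed was Cda and Samhd1 (r = -0.527), over 9 group means. Of all genes at that level, the closest in pattern to Slc29a1 were Laptm4b (r = 0.973) and Serpinb6a (r = 0.967), to Upp1 Mrpl52 (r = 0.908) and Mvp (r = 0.893), to Slc28a2 Nploc4 (r = 0.979) and Srsf9 (r = 0.97), to Xdh Cbfa2t3 (r = 0.945) and Limd1 (r = 0.942), and to Cda Gm19461 (r = 0.996) and Rgs5 (r = 0.994). With 9676 genes compared over 9 points, high coefficients arise readily, and they are given as a description.

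Another 57 genes of nucleoside metabolism were listed by role, of which 55 were found and 37 to 39 were tested in each genotype comparison. In splenic Ly6C high cells 11 were called higher and 4 lower among 38, where 22.2% of all genes were called and 9.77% were called higher. Of the dNTP supply genes 5 of 6 rose, with a median log2 fold change of 1.07 against 0.01 over all genes. Tyms, thymidylate synthase, rose by 1.35 ± 0.16 (SE, adjusted p = 0.000134), and Rrm1 and Rrm2, the subunits of ribonucleotide reductase, by 1.04 and 0.84. All 8 proliferation markers tested were also called higher in this comparison, with summed RPM of 634 to 659 in wild type and 1062 to 1444 in Rnaset2-/-. Tyms is in both lists, so they are not independent. The part of proliferation in the dNTP genes was not tested. Of the dNTP supply calls those of Tyms, Rrm2 and Dut were lost with all 29 libraries in 1 fit, and they held in every other alternative. In the salvage group Uck2, Tk1 and Hprt rose, by 0.99, 0.88 and 0.66, and at the cell surface Nt5e, Enpp1 and Dpp4 fell, at -1.68, -1.13 and -1.03. In the same comparison all 7 T cell, all 7 NK cell and all 6 dendritic cell markers were called lower, with sums of 179 to 191, 471 to 512 and 146 to 159.7 RPM in wild type and 12.3 to 29, 19.8 to 53.8 and 17.1 to 24.3 RPM in Rnaset2-/-, and their part in these falls was not tested. The other called genes were Dtymk, Dut and Nt5c3, at 1.09, 1.12 and 0.77. In splenic Ly6C low cells 1 of 37 was called, against 8.35% of all genes. This was Adk, adenosine kinase, at 1.49 ± 0.38 (SE, adjusted p = 0.0463), a call lost without any wild-type library or without Rnaset2-/- replicate 2 or 4 (adjusted p from 0.000469 to 0.15 over the alternatives).

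In hepatic Ly6C high cells 9 were called higher and 7 lower among 39, and in hepatic Ly6C low cells 7 higher and 10 lower among 37, against 30.6% and 42.7% of all genes called in either direction. Slc43a3, a purine nucleobase transporter, was called higher in 3 of the 4 genotype comparisons, at 3.04 ± 0.43 (SE, adjusted p = 0.00236) in hepatic Ly6C high, 1.70 ± 0.31 (SE, adjusted p = 0.00296) in hepatic Ly6C low and 1.35 ± 0.19 (SE, adjusted p = 0.000408) in splenic Ly6C high cells. Its level was 120.5 to 332 RPM in Kupffer cells and 7.25 to 10.4 RPM in wild-type hepatic Ly6C high cells. Upb1, beta-ureidopropionase, the last enzyme of uracil breakdown, was called lower in the same 3 comparisons, at -2.37, -2.51 and -1.06. Gda, guanine deaminase, which makes xanthine from guanine, fell by 3.45 ± 0.55 on the log2 scale in hepatic Ly6C low cells (SE, adjusted p = 0.0016), from 240.0 to 299 RPM in wild type to 11.2 to 69.2 RPM in Rnaset2-/-. In hepatic Ly6C high cells its difference was -1.11 (adjusted p = 0.0174), a call lost without wild-type replicate 1 or 3 or without Rnaset2-/- replicate 2 or 3 (adjusted p from 0.00116 to 0.0731 over the alternatives).

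In the salvage group 1 gene rose and 5 fell among 12 in hepatic Ly6C high cells, and 3 rose and 3 fell in hepatic Ly6C low cells, against 30.6% and 42.7% of all genes called. Adk was lower in the former (-0.88, adjusted p = 0.0156) and higher in the latter (2.39, adjusted p = 0.00035), with 31.9 to 43.4 RPM in wild-type and 146 to 286 RPM in Rnaset2-/- Ly6C low cells. The former call was lost without wild-type replicate 1 or 3, without Rnaset2-/- replicate 3 and with RPM as deposited (adjusted p from 0.00205 to 0.083), and the latter was kept throughout. Tk1, thymidine kinase of dividing cells, was called higher in both, at 1.18 and 2.23, the first of these lost on leaving out wild-type replicate 1 or 3, or replicate 2 or 3 of the Rnaset2-/- group (adjusted p from 0.0199 to 0.11). At the cell surface Nt5e, the ectonucleotidase CD73, was called lower in splenic Ly6C high and hepatic Ly6C low cells (-1.68 and -1.16) and higher in hepatic Ly6C high cells (1.44), at no more than 5.9 RPM in any splenic or hepatic Ly6C library. The call in hepatic Ly6C low cells was lost without any Rnaset2-/- library (adjusted p from 0.0106 to 0.132).

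The other genes called in hepatic Ly6C high cells, with their log2 fold changes, were Adora2a (1.74), Tyms (1.67), Enpp1 (0.90), Nt5m (0.90), Rrm1 (0.86), Uckl1 (-0.59), Hprt (-0.71), Cmpk1 (-1.11), Cmpk2 (-1.21). In hepatic Ly6C low cells they were Enpp1 (1.80), Dctd (1.25), Nt5c3 (0.68), Cmpk2 (0.61), Hprt (-0.60), Nt5c2 (-0.78), Dut (-0.96), Ampd3 (-1.17), Uckl1 (-1.36), Uck2 (-1.67), Dpp4 (-2.51). Uckl1, a uridine and cytidine kinase, was lower in both lists, while Cmpk2, a mitochondrial nucleotide kinase induced by interferon, was lower in Ly6C high and higher in Ly6C low cells. Of the calls on these genes in the 4 genotype comparisons, 4 of 15, 0 of 1, 7 of 16 and 8 of 17 were kept under every alternative and without any library.

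**Figure D4:**
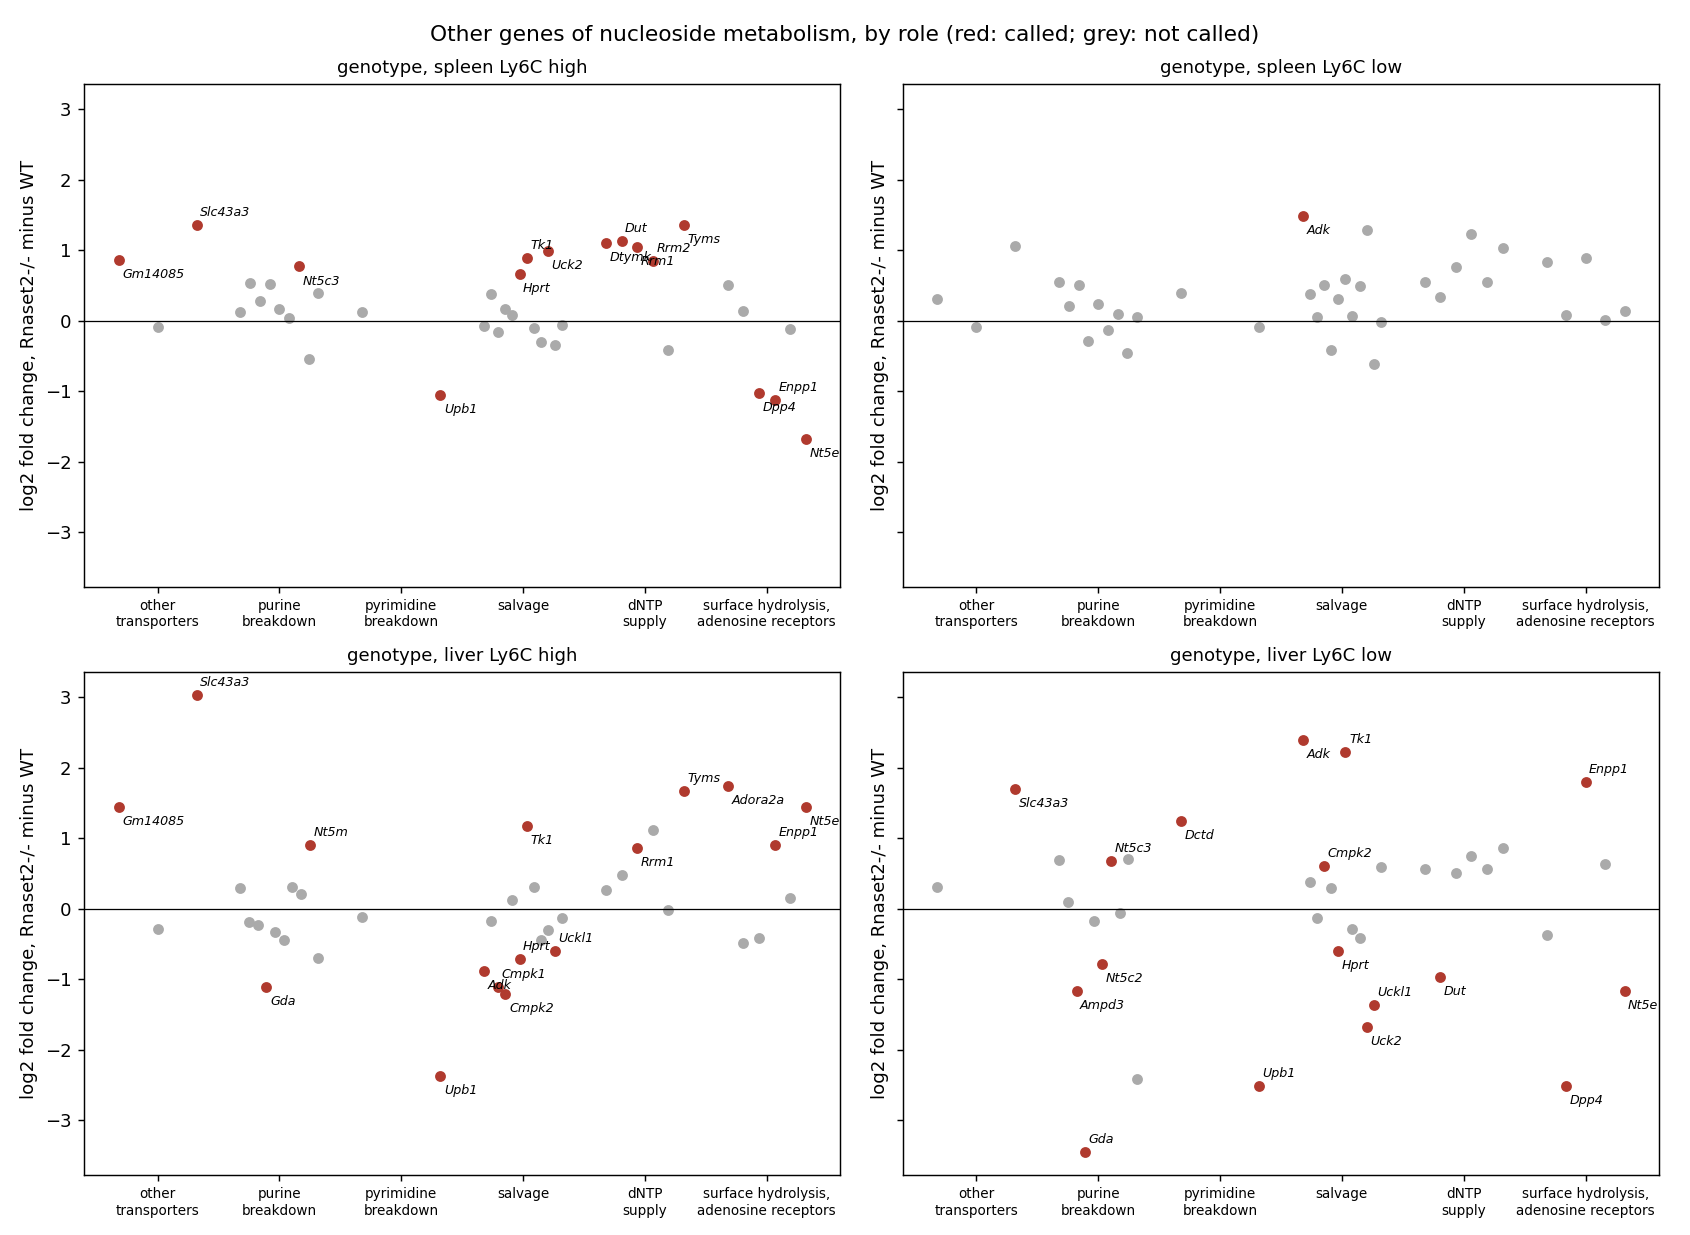
Log2 fold change between Rnaset2-/- and wild-type cells (y axis) of the other genes of nucleoside metabolism by role (x axis), in a panel per organ and subset, with called genes in red and named. The dNTP supply genes lay above 0 for 5 of 6 in splenic Ly6C high cells, Slc43a3 reached 3.04 in hepatic Ly6C high cells and Gda -3.45 in hepatic Ly6C low cells.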

How the data were processed

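RNA of FACS-sorted macrophages (1 ng a library) was amplified with an Ion AmpliSeq panel of mouse transcripts and read on an Ion Proton sequencer. The deposited values are RPM for 23930 genes in 29 libraries, which the authors made in Torrent Suite through its AmpliSeqRNA plug-in, and mm10 is named in the submitters' processing notes. Every value was a whole number of reads within 0.1 read, and libraries held 11175843 to 21167602 reads, so that 1 read is worth little against the levels of all members but Cda. The authors used DESeq2 with RLE scaling for genes, whereas RPM is no count, so limma (version 3.58.1, R 4.3.3, moderated variance with a trend) was fitted to log2(RPM / RLE factor + 1) of genes with at least 1 RPM in 3 compared libraries. Tests were two-sided, fitted to the compared groups, and adjusted over all genes tested. Differences are the first group minus the second.

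Alternatives were an added value of 0.1, no filter, unscaled RPM, TMM factors, all 29 libraries in 1 fit, a replicate block, a threshold of adjusted p 0.1 with no fold, each library left out, and edgeR (version 4.0.16) and DESeq2 (version 1.42.0) on the recovered reads. Leaving out replicate 1 of both hepatic Rnaset2-/- groups was chosen after seeing the data. Deviations of same-numbered libraries from their group means correlated above 0.1 in all 3 pairs between the hepatic Rnaset2-/- subsets (r = 0.232 to 0.527). All 3 pairs were positive, but not all above 0.1, between organs in wild-type Ly6C low cells (0.098 to 0.394) and between Rnaset2-/- Ly6C low and Kupffer cells (0.0938 to 0.345). The pairing used comes from the data and the shared numbers, not from a stated animal. Chi-square per degree of freedom between libraries of a group was at least 6.17, more than counting error gives, so no library was merged with another, though repeat amplifications of 1 RNA were not tested for. All members were named whatever their values, and other genes of the pathway where called between genotypes, together with the closest genes in pattern. The members and lists were chosen with earlier results of these data known. Simulated data were used to check the fits.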

Additional observations from a re-analysis of the deposited data

Results flagged for a closer look

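The lowest of 4 libraries stood apart from its group in 2 of 18 gene-and-group pairs tested (Dixon's test at the 95% level), where chance gives about 5% of groups. These were Upp1 in replicate 2 of the splenic Ly6C low Rnaset2-/- group, at 13.3 RPM against 29.2, 31.7 and 31.8 RPM, and Xdh in Kupffer cell replicate 3, at 254 RPM against 367, 374 and 379 RPM. The former library is also the 1 splenic library with Y-linked transcripts above the 3-read level, and the part of this in its Upp1 level was not tested. The latter library held the lowest Kupffer cell marker sum of its group, at 6736 RPM against 17289, 18584 and 19392 RPM. It also held the highest B cell sum, at 883 RPM, and sinusoidal endothelial sum, at 6050 RPM. The part of this in its Xdh level was not tested.

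Genotype differences differed between organs for Slc29a1, with interactions of 2.77 in Ly6C high and 1.49 in Ly6C low cells on the log2 scale, and for Xdh in Ly6C low cells, with -2.00. By limma the adjusted p was 0.000215, 0.0159 and 0.000787 in that order. Over the alternatives it ranged from 2.66e-10 to 0.00112, 0.0019 to 0.0468 and 4.15e-07 to 0.00345. All 3 hepatic Rnaset2-/- libraries lay above all wild-type ones for Slc29a1 in both subsets, and below them for Xdh in Ly6C low cells. Sex differed with genotype in the hepatic libraries, so the parts of organ and sex in these interactions cannot be told apart.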

How the results depend on the processing

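Of 47 called differences of members, 26 kept their call under every alternative and without any library. Among 1853 alternative values none reversed a call, 95 lost one and 72 gained one, and 46 changed sign with no call on either side. DESeq2 gave no adjusted p for Upp1 in 3 comparisons. Leaving out each library in turn gave 1 to 6 members called between genotypes in splenic Ly6C low cells and 1 to 5 in hepatic Ly6C high cells, 3 to 6 between Rnaset2-/- splenic subsets, 0 to 2 between Rnaset2-/- hepatic subsets, 3 to 5 and 1 to 3 between organs in Ly6C high and Ly6C low cells, 2 to 5 between Rnaset2-/- Ly6C low and Kupffer cells, and 1 to 3 and 2 to 4 for the interactions. Without replicate 1 of both hepatic Rnaset2-/- groups 3 were called between their subsets. DESeq2 called 5 in splenic Ly6C low cells, 3 between Rnaset2-/- hepatic subsets and 5 against Kupffer cells. Without the filter the counts were 2 for hepatic Ly6C high genotypes, 1 for organs in Ly6C low cells and 0 between Rnaset2-/- hepatic subsets, where an added 0.1, TMM factors and edgeR also gave 0 and the threshold of 0.1 gave 3. That threshold and unscaled RPM each gave 5 against Kupffer cells, and unscaled RPM gave 2 for the Ly6C high interaction. All 29 libraries in 1 fit gave 4 between Rnaset2-/- hepatic subsets and 3 between organs in Ly6C high cells. That fit also ended the calls of Upp1 and Slc29a3 between wild-type hepatic subsets, Slc28a2 between wild-type splenic subsets, Slc28a2 and Slc29a1 between organs in Ly6C high cells and Samhd1 in Kupffer cells. The fit without the filter ended those of Slc29a1 between organs, Xdh between Rnaset2-/- splenic subsets and against Kupffer cells, and Dck in Kupffer cells. The cause of these changes was not tested.

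With the replicate number as a block 4 members were called between the Rnaset2-/- hepatic subsets, where all 3 pairs correlated above 0.1, and 3 between the Rnaset2-/- splenic subsets, where not all pairs were positive. The block also ended the calls of Dck between splenic Ly6C low genotypes and in Kupffer cells and of Ada between hepatic Ly6C high genotypes, and gave calls of Samhd1 between organs in Ly6C low cells and against Kupffer cells. In the latter 2 comparisons all 3 pairs were positive, but not all above 0.1.

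Over all genes, edgeR on the recovered reads called 2391, 885, 3264 and 4511 between genotypes, against 2311, 860, 3351 and 4620 by limma in the order splenic Ly6C high, splenic Ly6C low, hepatic Ly6C high and hepatic Ly6C low. In splenic Ly6C low cells DESeq2 called 1600 and the fit without the filter 515. With all 29 libraries in 1 fit the counts were 1143 in splenic and 5630 in hepatic Ly6C high genotypes and 3795 between Rnaset2-/- hepatic subsets (1853 otherwise). With the block they were 3135 there and 1315 between Rnaset2-/- splenic subsets (2897 otherwise). The threshold of 0.1 with no fold gave 4881 and 1982 in the splenic genotype comparisons, 6234, 4551 and 3005 between wild-type splenic, Rnaset2-/- splenic and Rnaset2-/- hepatic subsets (3530 for the first otherwise), and 6215 and 5499 between organs (4035 and 3614 otherwise). Other pathway genes called between genotypes numbered 5 to 22, 0 to 7, 7 to 17 and 10 to 26 over the alternatives. The groups hold 3 or 4 libraries, the panel gives no level per length, and the smallest members (Cda at 1 to 9 reads in hepatic Ly6C low cells) are limited by depth.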

Other observations

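Between the subsets of wild-type spleen 3 of the other nucleoside genes were called higher and 16 lower in Ly6C low cells among 38 tested, where 33.6% of all genes were called, with a median log2 fold change of -0.44 against 0.01 over all genes. In Rnaset2-/- spleen they were 4 higher and 16 lower among 38, where 28.1% of all genes were called. The dNTP supply genes, which make deoxynucleotides for dividing cells, were lower in Ly6C low cells for 5 of 6 in wild-type and 5 of 6 in Rnaset2-/- spleen. In wild-type liver 2 of these 6 were called higher in Ly6C low cells and none lower, where 10.1% of all 11688 genes were called. Between organs 5 of 6 were lower in hepatic than in splenic wild-type Ly6C high cells, with a median of -1.97, where 37.8% of all 10681 genes were called, 2211 of them lower. Summed proliferation markers (8 genes, with Tyms shared with the dNTP supply list) were 634 to 659 RPM in wild-type splenic Ly6C high, 174 to 206 RPM in splenic Ly6C low, 57.7 to 92.4 RPM in hepatic Ly6C high and 186 to 207 RPM in hepatic Ly6C low cells, and their part in these counts was not tested.

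Between Kupffer cells and wild-type hepatic Ly6C low cells 8 of the other genes were called higher and 8 lower among 45, where 50% of all genes were called, so the share of these genes was below that of all genes. Slc43a3 was at 120.5 to 332 RPM in Kupffer cells and 12 to 18.8 RPM in wild-type hepatic Ly6C low cells.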
